A study of Mus musculus with 2 samples.

Results

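Barcodes chosen for their hepatocyte RNA were examined in single-cell RNA libraries of mouse liver mononuclear cells collected on day 14 after an injection into the spleen. A barcode is the tag of a droplet, and a unique molecular identifier (UMI) is the tag of a captured RNA molecule. Barcodes were kept if they showed 200 genes or more and drew no more than 20% of their UMIs from mitochondrial genes. A hepatocyte barcode was then one in which Alb, Apoa1, Apoa2, Ttr, Serpina3k and Trf together held at least 2% of UMIs and in which no UMI of the leukocyte gene Ptprc, the Kupffer cell gene Clec4f or the sinusoidal endothelial gene Stab2 was seen. The rule took 3013 of 34080 barcodes in all: 2994 of 19822 in the MC38 library and 19 of 14258 in the control library. Because these 6 genes chose the barcodes, their summed level is a description and supports nothing.

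The MC38 library came from C57BL/6 mice given 500000 MC38 cells, a mouse colon adenocarcinoma line, by intrasplenic injection, after which the spleen was removed. The control library came from C57BL/6 mice given PBS by the same route and is labelled as having no tumor. A subcutaneous injection of 3000000 MC38 cells stands in the growth protocol of both, and neither that injection nor splenectomy is stated separately for the control mice. Each library pooled 3 mice, hepatocytes were depleted by spins at 100 x g before a density gradient, and 10000 cells per channel were aimed for. With 1 library in each group there was no test between them, and every interval below is a 95% interval that covers counting error only. The labels do not say how far from a tumor any cell lay.

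Hepatocytes make most of the proteins of blood plasma, including albumin, apolipoproteins and transferrin, and they run gluconeogenesis, the urea cycle, fatty acid oxidation and drug metabolism. During inflammation, cytokines such as interleukin-6 act on hepatocytes through STAT3 and C/EBP factors and raise a set of secreted proteins called the acute phase response. Work is divided along the liver lobule, with urea and glucose production near the portal vein and glutamine synthesis in the cells around the central vein.

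Hepatocyte barcodes formed 17.3% (16.7 to 17.8%) of the 17338 MC38 barcodes that passed the gene and mitochondrial limits, against 0.235% (0.142 to 0.367%) of 8086 in the control. They were shallow. Their median was 1245 UMIs and 664 genes in MC38 and 879 UMIs and 489 genes in control, whereas all passing barcodes had medians of 3354 and 6894 UMIs. Hepatocyte barcodes together held 4806171 UMIs in MC38 but 23570 in control, so the control side sets the precision of every comparison between libraries. More than 20% mitochondrial UMIs had set aside 2264 of the MC38 and 6139 of the control barcodes beforehand. The median mitochondrial share of hepatocyte barcodes was 5.93% in MC38 and 10.7% in control, and the mitochondrial limit removed 157 and 21 barcodes that met the other conditions. The conditions on Ptprc, Clec4f and Stab2 removed 213 and 0. Since hepatocytes had been depleted on purpose, their share reflects the preparation as well as the liver, and the parts of each cannot be told apart.

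**Figure D1:**
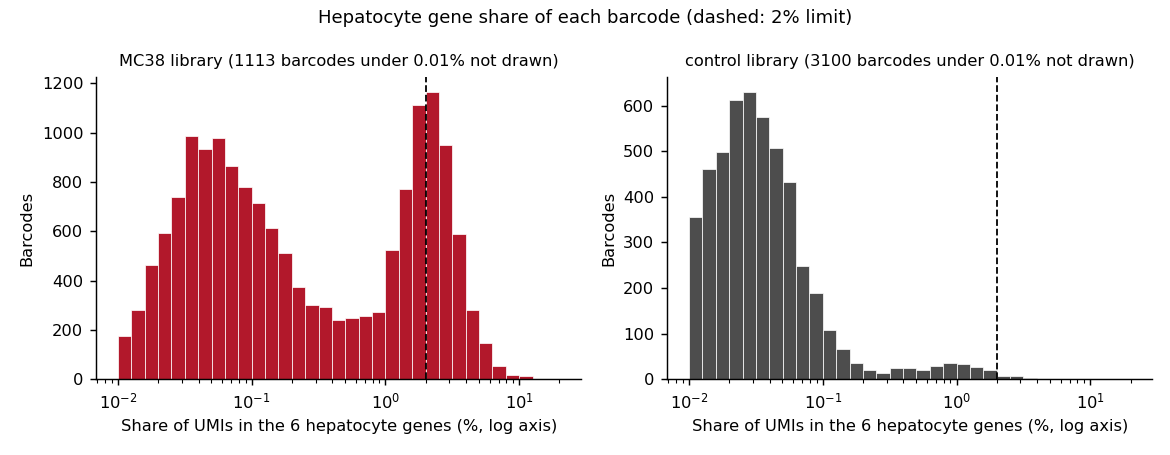
Number of barcodes (vertical) by the share of UMIs held by the 6 hepatocyte genes (horizontal, log axis) in the MC38 (left) and control (right) libraries, over barcodes that passed both limits. The MC38 library has a separate upper mode, which the dashed 2% limit divides; the control library has few barcodes near it.

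The 2% limit ran through the upper mode of the MC38 library rather than below it. That library had 1344 barcodes at 1.5 to 2% and 1143 at 2 to 2.5%, against 24 and 7 in control. The 463 MC38 barcodes just inside the limit, at 2 to 2.2%, had 10625 UMIs per 1000000 (CPM) of Fabp1, a fatty acid binding protein of hepatocytes, and the 488 just outside, at 1.8 to 2%, had 10879 CPM. Mt1 stood at 14177 CPM inside and 14941 CPM outside. A further 2138 MC38 and 71 control barcodes met every condition but lay at 1 to under 2%. They share no barcode with the chosen set, and they hold 3778192 and 93021 UMIs, so they served as a second comparison, added after values had been seen and drawn from the same 2 libraries. The libraries had 63 barcode sequences in common, 14 of them carried by an MC38 hepatocyte barcode and none by a hepatocyte barcode of both.

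The most abundant RNAs of the MC38 hepatocyte barcodes included those of plasma proteins, iron and metal binding and the mitochondrial genome. Each UMI tags a transcript at its end, so CPM was compared between genes with no length scaling. Trf, the plasma iron carrier transferrin, was highest at 14545 CPM, as a gene that the rule itself used, and the ferritin chains Ftl1 and Fth1 had 14299 and 13433 CPM. Mt1, a metal-binding metallothionein, had 13789 CPM. The mitochondrial transcripts mt-Co3 and mt-Atp6 had 13908 and 12703 CPM, and Fabp1 had 9474 CPM. Alb, which encodes albumin, reached 6041 CPM. Of the proposed markers, Alb was seen in 98.2% of the MC38 barcodes, Apoa1 in 82.6%, Ttr in 94.6% and Orm1 in 91.2%. In the 19 control barcodes these shares were 100%, 68.4%, 94.7% and 47.4%. Apart from the rule genes, the hepatocyte factor Hnf4a stood at 434 CPM in MC38 and 255 CPM in control. The epithelial keratins Krt8 and Krt18 stood at 913 and 821 CPM in MC38. In control they had 255 CPM (6 UMIs) and 339 CPM (8 UMIs), log2 ratios of MC38 to control of 1.84 and 1.27. RNA of the 112 ribosomal protein genes took 15.4% of UMIs in MC38 and 15.8% in control.

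RNAs that stay in the nucleus were scarce. Malat1, a nuclear long noncoding RNA, had 257 CPM in MC38 hepatocyte barcodes, against 17805 CPM in B cell barcodes of the same library (at least 2 UMIs of Cd79a and none of Cd3d, Cd3e or Cd3g), which is 69.3-fold more in B cells. It was present in 28.6% of the hepatocyte barcodes. In control it had 636 CPM in hepatocyte barcodes against 22993 CPM in B cell barcodes. Xist, the RNA that coats the inactive X chromosome, showed the same order, with 17.1 CPM against 1224 CPM in MC38. Neat1, a further nuclear RNA, had 20.2 CPM in hepatocyte barcodes and 202 CPM in B cell barcodes of MC38. In control Neat1 had 84.9 CPM in hepatocyte and 214 CPM in B cell barcodes, and the interval of that log2 ratio, -4.38 to 0.52, included 0. The barcodes match hepatocytes by their messenger RNA and lay far below the immune barcodes in Malat1 and Xist. Whether each holds a whole cell, a piece of cytoplasm or free RNA was not tested, and the word barcode is kept here for that reason.

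**Figure D2:**
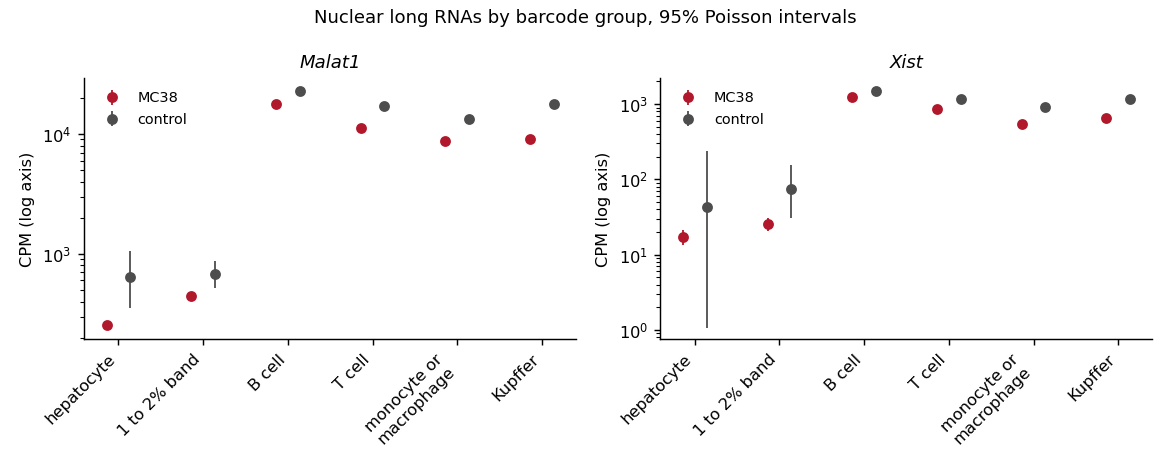
CPM (log axis) of Malat1 (left) and Xist (right) in 6 groups of barcodes of the MC38 (red) and control (grey) libraries, with 95% Poisson intervals. Hepatocyte barcodes and the 1 to 2% band lie more than 10-fold below the 4 immune groups in both libraries.

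RNA of other cell types was present at low levels, in barcodes that the rule had screened for it. The Kupffer list holds Clec4f and the endothelial list Stab2, both at 0 by the rule, which also required 0 of Ptprc. The sums are thus a description. Summed over 8 myeloid markers this RNA was 481 CPM in MC38, with Lyz2 at 259 CPM, and 424 CPM in control. Over 6 erythroid markers it was 529 and 42.4 CPM, over 6 neutrophil markers 117 and 0 CPM, over 8 Kupffer cell markers 111 and 212 CPM, over 6 B cell markers 61.0 and 127 CPM, and over 7 T cell markers 17.1 and 0 CPM. The 9 endothelial markers summed to 16.0 CPM in MC38 and 42.4 CPM in control, a single UMI. The 7 colon epithelial markers summed to 2.29 CPM in MC38, where Krt20, Cdx1, Cdx2 and Epcam were at 0, and to 0 in control. Krt20, Cdx1 and Cdx2 were at 0 in every barcode group examined in both libraries. No group of tumor cells was set beside them, so these markers cannot tell whether tumor cell RNA was present. Cholangiocyte markers summed to 78.6 CPM in MC38, 58.3 CPM of it Sox9, with Epcam, Cftr and Tspan8 at 0. The 8 stellate cell and fibroblast markers had 53 UMIs in MC38, with Lrat, Reln and Rgs5 at 0, and the 5 platelet markers 35.2 CPM, while both were at 0 in control. Of the MC38 barcodes, 48.0% carried at least 1 UMI of the myeloid list but 25 barcodes carried 5 or more.

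Which liver functions differed between the tumor-bearing and the control liver was read from summed UMIs. A gene was compared when the smaller library would be expected to hold at least 10 UMIs of it at equal levels, which 379 genes did. Nearly all UMIs counted were from MC38, so a gene qualified almost only through its MC38 level. Genes low in MC38 could hardly enter, so the counts below lean toward higher genes. Of these, 62 were at least 2-fold higher in MC38 and 17 at least 2-fold lower, a background of 16.4% and 4.49%. Over all 379 the median log2 ratio of MC38 to control was 0.07. In the 1 to 2% band 1305 genes qualified, with 172 higher (13.2%) and 48 lower (3.68%) and a median of 0.16. All but 2 of the 62 higher genes kept their direction in the band, where 32 of them again passed 2-fold; of the 17 lower genes, 17 kept it and 8 again passed. Fewer hepatocytes of a kind and less RNA per hepatocyte cannot be told apart in such sums.

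Acute phase genes were higher in MC38 as a group. Of 32 on the list 11 qualified, 10 of these were at least 2-fold higher and none was lower, with a median log2 ratio of 1.98, against the 16.4% of all genes. List genes low in MC38 could hardly qualify, so these counts are a description. In the band 17 of 18 were higher, with a median of 2.23, against 13.2%. Summed over all 32 list genes, with no count minimum, MC38 barcodes had 32800 CPM and control barcodes 8952 CPM. The spread over barcodes left little overlap. The median MC38 barcode had 303 acute phase UMIs per 10000 UMIs, with 171 at the 10th and 512 at the 90th percentile, and the median control barcode had 69.1, with 18.8 and 138. A single control barcode of 19 reached the MC38 median, and 7 of 2994 MC38 barcodes (0.234%) lay at or below the control median. The metallothioneins Mt1 and Mt2 weigh heavily in this sum and spread. Together they had medians of 155 per 10000 UMIs in MC38 barcodes and 22.9 in control barcodes.

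Several members are secreted carrier proteins. Orm1, the acid glycoprotein orosomucoid, lies at chr4:63344560-63348163 (plus strand, GRCm38, GENCODE M21). It had 16070 UMIs or 3344 CPM in MC38 and 25 UMIs or 1061 CPM in control, a log2 ratio of 1.66 (1.09 to 2.28), and 2.34 in the band. A single control barcode held 10 of the 25 UMIs. Hp, haptoglobin, which binds free hemoglobin, had 1847 CPM in MC38 and 382 CPM in control, a log2 ratio of 2.27 (1.35 to 3.40). Hpx, hemopexin, which binds heme, had 1836 and 467 CPM, a ratio of 1.98 (1.14 to 2.98). The interval of each of these 3 genes stayed above 0, and the band ratios of Hp and Hpx were 1.81 and 2.46. Fgl1, a fibrinogen-related hepatokine, had 542 CPM in MC38 and 42.4 CPM in control, where it was a single UMI, and its band ratio was 1.53. Lcn2, the siderophore-binding lipocalin, had 2538 UMIs in MC38 and 0 in control. With 3 counts in place of the 0, as a bound, its level was 4.15-fold higher in MC38. The interval of its log2 ratio began at 1.75. In the band Lcn2 had 1304 and 2 UMIs. Neutrophils also make Lcn2 and Hp, and the neutrophil markers summed to 117 CPM in MC38 and 0 in control. Their part in these values was not tested.

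Metallothioneins and hepcidin, which handle metals, were higher as well. Mt1 had 13789 CPM in MC38 and 2970 CPM in control, a log2 ratio of 2.22 (1.88 to 2.57), and was seen in 99.4% of MC38 and 63.2% of control barcodes. Mt2, its neighbor on chromosome 8, had 3275 and 552 CPM, a ratio of 2.57 (1.80 to 3.48). Both repeated in the band, at 2.31 and 2.16. Hamp, which encodes the iron-regulating hormone hepcidin, had 1617 and 764 CPM, a ratio of 1.08 (0.42 to 1.84). A single control barcode held 10 of the 18 control UMIs of Hamp. On the list for iron, heme and metals 6 of 8 genes were higher and none lower, against 16.4% and 4.49% of all genes. Of the 6, 5 also stand on the acute phase list and the other is Trf, a rule gene, so the list adds no independent count. The ferritin chains had log2 ratios of -0.64 for Ftl1 and -0.29 for Fth1, and the sign of Fth1 turned in the band, at 0.20.

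Clotting and complement members were also measured. Fgb, the fibrinogen beta chain, had 1105 CPM in MC38 and 424 CPM in control, a log2 ratio of 1.38 (0.50 to 2.44), whereas Fgg, the gamma chain, had 975 and 721 CPM with an interval of -0.25 to 1.22 around 0.43. C3, the central complement component, had 1012 and 424 CPM, a ratio of 1.25 (0.37 to 2.32). The serum amyloid genes fell under the count minimum. Saa1 had 386 CPM (1855 UMIs) in MC38 and 84.8 CPM (2 UMIs) in control, and Saa2 had 414 and 297 CPM, the control value being 7 UMIs in a single barcode. In the band their ratios were 3.32 and 2.35.

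**Figure D3:**
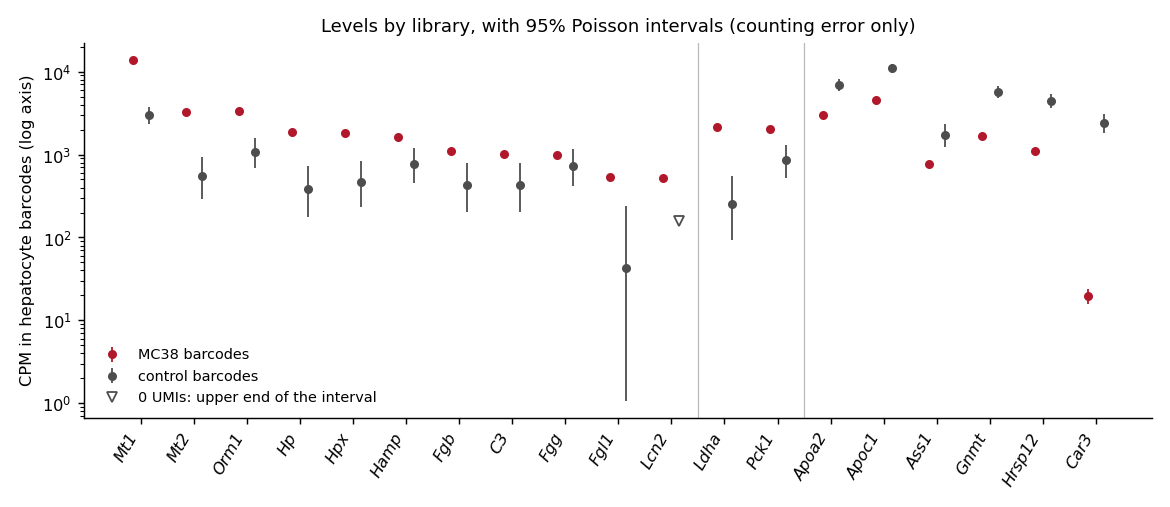
CPM (log axis) of named genes in hepatocyte barcodes of the MC38 (red, left of each pair) and control (grey) libraries, with 95% Poisson intervals. Acute phase genes stand left of the first line, metabolic genes higher in MC38 between the lines, and genes lower in MC38 at the right; Lcn2 had no control UMI and Car3 differed most.

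The start regions of acute phase genes are shown because these genes were higher together and the known regulators of the acute phase bind near such starts. From RefSeq (GRCm38.p6), the 250 bases before the start are given on the gene's strand for 4 secreted proteins that were higher in MC38, with matches to TTNNGNAA (C/EBP-like) and TTCNNNGAA (STAT-like) on either strand in capitals. The windows are chr7:105600117-105600366 (minus strand) for Hpx, chr3:83049864-83050113 (minus) for Fgb, chr7:30944030-30944279 (minus) for Hamp and chr2:32387740-32387989 (minus) for Lcn2.
Hpx: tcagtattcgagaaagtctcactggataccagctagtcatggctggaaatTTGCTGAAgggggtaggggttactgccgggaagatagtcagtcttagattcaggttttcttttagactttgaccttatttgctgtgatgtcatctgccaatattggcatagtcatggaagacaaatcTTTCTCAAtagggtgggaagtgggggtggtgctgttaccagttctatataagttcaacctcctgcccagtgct
Fgb: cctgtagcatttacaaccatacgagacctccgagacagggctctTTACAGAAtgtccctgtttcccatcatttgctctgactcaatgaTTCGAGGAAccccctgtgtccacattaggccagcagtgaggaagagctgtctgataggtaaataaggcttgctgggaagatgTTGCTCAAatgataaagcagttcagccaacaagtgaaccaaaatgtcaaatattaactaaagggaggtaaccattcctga
Hamp: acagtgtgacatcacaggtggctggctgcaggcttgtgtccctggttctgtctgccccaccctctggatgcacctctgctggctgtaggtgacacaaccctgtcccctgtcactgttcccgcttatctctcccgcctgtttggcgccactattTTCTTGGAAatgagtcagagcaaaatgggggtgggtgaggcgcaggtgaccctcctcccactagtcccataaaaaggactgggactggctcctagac
Lcn2: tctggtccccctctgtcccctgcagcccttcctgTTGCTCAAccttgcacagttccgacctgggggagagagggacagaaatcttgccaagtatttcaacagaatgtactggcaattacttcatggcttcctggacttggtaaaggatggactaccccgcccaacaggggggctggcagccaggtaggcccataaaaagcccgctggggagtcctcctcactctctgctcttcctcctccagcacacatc

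Hpx held 2 C/EBP-like matches, Fgb held 2 and a STAT-like match TTCGAGGAA, Hamp held a single STAT-like match TTCTTGGAA, and Lcn2 a single C/EBP-like match. Over the 28 start windows found for 25 of the 32 list genes, 67.9% held the C/EBP-like letters and 25% the STAT-like letters. Over all 32851 windows of the same 250 bases the shares were 36.8% and 7.02%. The list was drawn up from genes known to respond to inflammation, so the shares describe that choice, and a match is not a bound site.

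The metal response element is bound by the zinc sensor MTF1. Mt2 is given with matches to the looser letters TGCNCNC (metal response element-like) on either strand in capitals. Its window is chr8:94172368-94172617 on the plus strand.
Mt2: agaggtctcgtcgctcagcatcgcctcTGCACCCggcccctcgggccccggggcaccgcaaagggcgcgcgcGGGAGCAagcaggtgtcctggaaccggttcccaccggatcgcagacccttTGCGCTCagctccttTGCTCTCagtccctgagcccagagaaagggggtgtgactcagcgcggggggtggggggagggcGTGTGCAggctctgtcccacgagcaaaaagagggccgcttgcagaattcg

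It held 5 matches, where 44.4% of all 250-base windows held at least 1 and 4.65% at least 3. The window of Mt1 held 1, and a match to these letters is not a bound site.

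Genes of fuel use were mixed, with several genes of fat burning higher in MC38. Of 10 fatty acid oxidation genes that qualified, 5 were at least 2-fold higher and none lower, with a median log2 ratio of 0.79, against 16.4% and 4.49% of all genes. In the band 5 of 17 were higher and 1 lower, against 13.2% and 3.68%. Fabp1, a member of that list, had 9474 CPM in MC38 and 12898 CPM in control, a log2 ratio of -0.45 (-0.61 to -0.28). Pck1, which sets the pace of gluconeogenesis, had 2058 and 849 CPM, a ratio of 1.28 (0.65 to 1.99). Ldha, a lactate dehydrogenase chain, had 2167 and 255 CPM, a ratio of 3.09 (1.97 to 4.54) that was 2.27 in the band. Fam25c, of less known function, had 1954 and 382 CPM, a ratio of 2.36, and 2.22 in the band. Plin2, a lipid droplet coat protein outside the naming rule and picked after its values were seen, had 1961 and 636 CPM and a band ratio of 2.34.

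**Figure D4:**
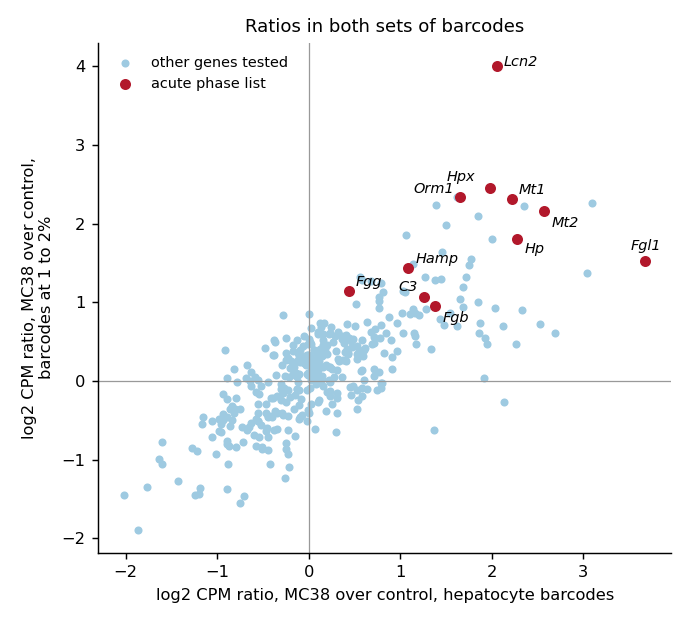
Log2 CPM ratio of MC38 over control in hepatocyte barcodes (horizontal) and in the 1 to 2% band (vertical) for the 379 genes compared. All 11 acute phase genes (red) lie above 0 on both axes. The horizontal place of Lcn2 is a bound with 3 counts put in for control, which had no UMI.

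Enzymes of amino acid use were among the 17 lower genes. Gnmt, which uses up the methyl donor S-adenosylmethionine, had 1688 CPM in MC38 and 5728 CPM in control, a log2 ratio of -1.76 (-2.01 to -1.51). Hrsp12, an imine deaminase now called Rida, had 1088 and 4412 CPM, a ratio of -2.02 (-2.30 to -1.73). Ass1, a urea cycle enzyme, had 762 and 1740 CPM, and Agxt, which clears glyoxylate, 425 and 1146 CPM. All 4 were lower in the band too, with log2 ratios of -1.27 or below. Mat1a, which makes S-adenosylmethionine, went the other way at 3886 and 1740 CPM, a ratio of 1.16. Over the whole list for urea and amino acids 4 of 16 genes were higher and 3 lower, against 16.4% and 4.49% of all genes, with a median log2 ratio of 0.50. The band median was -0.47, with 2 of 30 higher and 8 lower, against 13.2% and 3.68%.

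Apolipoproteins separated by member. Apoc1, an inhibitor of lipoprotein uptake, had 4534 CPM in MC38 and 10946 CPM in control, a log2 ratio of -1.27 (-1.45 to -1.09), while Apoc4 had 1540 and 1527 CPM. Apoa2 had 2955 and 6916 CPM and Apoa1 1743 and 1570 CPM, but both are rule genes, whose sum the rule holds near one level, so their split against Trf (14545 and 5303 CPM) and Alb (6041 and 11073 CPM) is given as a description. Atp5k, Cox7c, Uqcr11 and Cox7b, small subunits of the respiratory chain and ATP synthase, had log2 ratios between -1.63 and -1.16, and in the band between -1.05 and -0.45. The subunits mt-Nd5 and mt-Nd3, of the mitochondrial genome, stood at -1.60 and -1.24, and Cox6c at -1.05, all lower in the band too. Some other subunits lay nearer 0 or above it, such as Cox5b at -0.11 and Atp5d at 0.40. The genes mt-Nd5, mt-Nd3, Cox6c, Cox5b and Atp5d were picked after their values were seen. Gpx1, a peroxide-removing enzyme, had 3820 and 7722 CPM. Reads of near-identical gene copies may be split. Serpina1d, an alpha-1 antitrypsin copy, had 489 and 1782 CPM while its near-identical copy Serpina1e had 2225 and 1485 CPM, and the values of the orosomucoid, serum amyloid and major urinary protein copies are uncertain for the same reason.

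Car3, a carbonic anhydrase abundant in resting mouse hepatocytes, differed most among the fixed genes. It had 94 UMIs or 19.6 CPM in MC38 and 56 UMIs or 2376 CPM in control, a log2 ratio of -6.92 (-7.42 to -6.42), and 88 and 235 UMIs in the band, a ratio of -6.76. It was seen in 2.74% of MC38 barcodes and in 57.9% of control barcodes. A single control barcode held 31 of the 56 UMIs, which the interval does not allow for. Its total lay under the count minimum, which genes seen mainly in the smaller library cannot pass, so it is not among the 17 and no gene with its pattern could be. Major urinary proteins, pheromone carriers secreted by the liver, summed to 68.0 CPM in MC38 and 933 CPM in control (327 and 22 UMIs), and Mup3 had a ratio of -4.15, and -3.50 in the band. Cyp3a11, a drug-metabolizing P450, had 98.0 and 933 CPM, a ratio of -3.25, but -0.26 in the band, so that difference did not repeat.

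The remaining lists are read against the 16.4% of all genes that were higher and the 4.49% that were lower. Among plasma proteins 4 of 17 were higher and 2 lower, counts that include the rule genes Trf, Serpina3k and Apoa2. Among proteins that fall in inflammation 1 of 9, the rule gene Trf, was higher and none lower. That list also holds the rule genes Alb and Ttr, at log2 ratios of -0.87 and -0.55. The rule holds the sum of its genes near one level, so this count is a description. Among glucose genes 2 of 6 were higher, and among genes of detoxification 1 of 7 was lower. The pericentral list had 3 of 5 higher with a median log2 ratio of 1.16, but its band median was -0.36, and the periportal list had 1 of 8 higher and 2 lower. Cyp2e1, a pericentral P450, had 439 and 170 CPM, a ratio of 1.37, and -0.62 in the band. The pericentral median thus changed sign between the sets, while the periportal median was -0.23 and -0.25. The medians of the interval ends of the periportal genes were -0.61 and 0.37. The periportal median also turned positive under several alternatives given below. Nearly all control UMIs of 3 pericentral genes lay in a single barcode each, 9 of 10 for Glul, 12 of 13 for Oat and 4 of 4 for Cyp2e1. Lists of bile acid, interferon, cell cycle and immediate early genes had at most 1 gene that qualified, as did those of lipid synthesis, complement, hepatocyte transcription factors and male-biased genes. Of 3 heat shock and chaperone genes 1 was higher, and of 2 coagulation genes 1. Summed P450 genes gave 1082 CPM in MC38 and 3012 CPM in control, and summed female-biased genes 474 and 1443 CPM.

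Liver RNA was also found in barcodes of lymphocytes. Over 157 liver genes, chosen from the fixed lists for a level at least 10-fold higher in hepatocyte than in lymphocyte barcodes and of at least 50 CPM (both libraries weighted equally), hepatocyte barcodes gave 15.0% of their UMIs in MC38 and 15.8% in control. B and T cell barcodes gave 0.713% in MC38 and 0.121% in control. In MC38 the mix of liver genes in lymphocyte barcodes was close to that of the hepatocyte barcodes, with r = 0.97 on the log2 scale over 149 genes and 12 of them at least 2-fold apart. In control r was 0.56 over 71 genes, of which 40 were 2-fold apart. Control lymphocyte barcodes set against MC38 hepatocyte barcodes gave r = 0.70 over 138 genes. The control hepatocyte barcodes held 3733 liver gene UMIs in all, and the part of such thin counts in the lower r was not tested. These correlations are across genes and are given as a description.

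The control side of this RNA comes from many more barcodes than 19, although the 19 helped to choose the genes, and its source was not tested. A gene could enter the 157 through the library in which it was high, so no count over them is given. As a share of liver gene UMIs in lymphocyte barcodes, Orm1 gave 182 per 10000 liver UMIs in MC38 and 25.1 in control, a log2 ratio of 2.86 (2.56 to 3.17). Mt1 gave 910 and 165 per 10000, Hamp 81.4 and 17.4, and Saa1 19.6 and 1.07, the last from 329 and 4 UMIs. Car3 gave 1.67 and 63.6 per 10000 and Mup3, from 37 and 157 UMIs, had a log2 ratio of -4.25. Car3 and Mup3 entered through their control level, being under 50 CPM in MC38 hepatocyte barcodes. Fibrinogen had the opposite direction here, with Fgb at 67.2 and 81.8 per 10000, a log2 ratio of -0.28 (-0.47 to -0.10), and Fgg at 58.0 and 74.1, a ratio of -0.35 (-0.55 to -0.15). Hpx gave 112 and 96.8 per 10000, a ratio of 0.22. Gnmt, at 94.1 and 116, was closer between libraries here than in hepatocyte barcodes.

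Within the MC38 library the hepatocyte barcodes were not uniform. For each of 1986 genes with at least 300 UMIs the variance over barcodes was divided by that of equal shares at each barcode's depth, which gave a median dispersion of 1.05, with 0.956 at the 5th and 1.55 at the 95th percentile. Glul, glutamine synthetase, reached 14.9, second to the hemoglobin gene Hbb-bs at 55.8, a red cell RNA that was seen in 973 barcodes but reached 10 or more UMIs in 3, with 230 in one. Ranks 3 to 5 were the hemoglobin gene Hba-a1 at 14.1 and the mitochondrial mt-Co3 and mt-Atp6 at 13.8 and 12.9. Lower down, Serpina1e had 7.21, Mt1 6.83, the rule gene Alb 6.51, Oat, ornithine aminotransferase, 6.46, Orm1 4.81 and Saa2 4.67. Gapdh, a glycolysis enzyme, had 1.21. Glul was seen in 26.5% of the barcodes and reached 247 UMIs in one, while 2202 barcodes had none. Oat was seen in 46.1% and reached 105 UMIs.

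Barcodes rich in Glul carried the expression pattern of the cells around the central vein. The 342 barcodes (11.4%, 10.3 to 12.6%) with at least 3 Glul UMIs that made at least 0.2% of their UMIs were set against the 2202 with none, a split picked after values were seen. Of 16 pericentral genes compared, Glul left out, 10 were at least 2-fold higher in the Glul-high barcodes (62.5%), where 1.33% of 4736 genes were. Of 23 periportal genes 14 were at least 2-fold lower (60.9%), against 2.66% of all genes. Depth was alike, with medians of 1368 and 1202.5 UMIs, and the mitochondrial shares were 5.20% and 6.13%. In the control library 1 of 19 barcodes was Glul-high, so no such comparison was made there.

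Oat had 5038 CPM in Glul-high and 582 CPM in Glul-free barcodes, a log2 ratio of 3.11 (3.03 to 3.20). Lhpp, a phosphatase, had 270 and 32.5 CPM, a ratio of 3.06. Cyp2e1, the alcohol-oxidizing P450, had 1216 and 294 CPM, a ratio of 2.05 (1.91 to 2.19), and Rgn, regucalcin, 1522 and 528 CPM, a ratio of 1.53. Slc1a2, a glutamate carrier, had 20 UMIs in the Glul-high barcodes and 0 in the others. On the periportal side Sds, serine dehydratase, had 74.8 and 453 CPM, a ratio of -2.60 (-3.07 to -2.17). Cps1, the entry enzyme of the urea cycle, had 30.6 and 148 CPM, and Hal, histidine ammonia-lyase, 51.0 and 210 CPM. Arg1, arginase, had 867 and 2869 CPM, a ratio of -1.73 (-1.86 to -1.60). Cyp2f2, a periportal P450, had 2 and 111 UMIs. Pck1, at 1792 and 2122 CPM, and Fbp1, at 1770 and 1951 CPM, both of gluconeogenesis, had ratios of -0.24 and -0.14. The intervals of the genes given with one did not include 0.

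**Figure D5:**
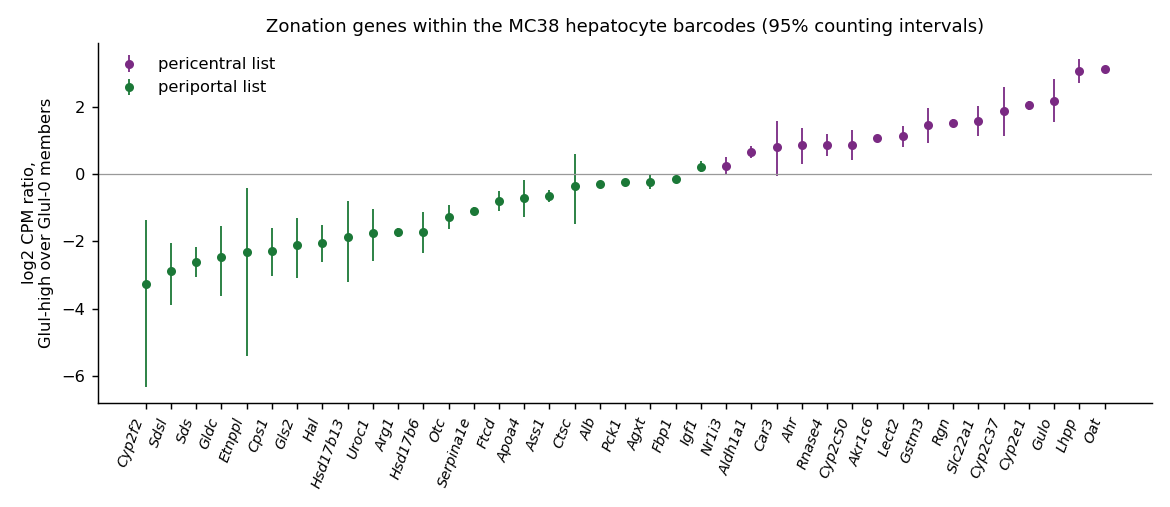
Log2 CPM ratio of Glul-high over Glul-free MC38 hepatocyte barcodes for 16 pericentral (purple) and 23 periportal (green) genes with at least 60 UMIs in all and UMIs on both sides, with 95% counting intervals. All 16 pericentral genes drawn lie above 0 and 22 of the 23 periportal genes below it.

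Acute phase genes did not follow this split as a group, since 2 of 27 were higher, 1 was lower and the median log2 ratio was -0.08. The 2 were Saa1, at 835 and 307 CPM (1.44, 1.29 to 1.60), and Saa2, at 871 and 335 CPM (1.38, 1.23 to 1.53). Genes outside the lists that led the split were Sult3a1, a sulfotransferase, at 67 and 41 UMIs (a log2 ratio of 3.25), and Gstm2, a glutathione transferase, at 367 and 95.1 CPM on the higher side. On the lower side Sult2a1, a further sulfotransferase, had 15.3 and 117 CPM.

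The same order appeared when the barcodes were divided by their P450 genes instead. Cyp2e1 without Cyp2f2 was seen in 1017 barcodes (34.0%), Cyp2f2 without Cyp2e1 in 88 (2.94%), both in 27 and neither in 1862. At 500 UMIs per barcode the first 2 shares were 18.1% and 1.37%. Between the first and the second set Glul had 2474 and 28.0 CPM, and Oat 2271 and 60.7 CPM, a log2 ratio of 5.23 (4.45 to 6.14). Of 12 pericentral genes 7 were at least 2-fold higher (58.3%), against 3.43% of all genes, and of 19 periportal genes 5 were at least 2-fold lower (26.3%), against 0.686%. None of 23 acute phase genes passed 2-fold either way.

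Minor RNAs differed between depths while the acute phase sum and Glul stayed near one level. With the MC38 barcodes in 3 classes of depth, low to high (medians of 709, 1245.5 and 2417 UMIs), the acute phase sum was 33423, 31709 and 33125 CPM, and Glul was 1200, 1153 and 1225 CPM. Alb fell with depth, at 7092, 6228 and 5695 CPM, and Fabp1 rose, at 8505, 9205 and 9835 CPM. Over the same classes Malat1 was 463, 251 and 207 CPM, Lyz2 487, 298 and 185 CPM, and the erythroid sum 887, 946 and 255 CPM. RNA of myeloid cells thus made a larger share of the shallow barcodes, and its source was not tested.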

How the data were processed

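The deposited files hold UMI counts per gene and barcode, raw as the values show, in 2 matrices of 28692 genes. Build GRCm38.p6, STAR, Cell Ranger 2.2 and bcl2fastq are listed in the submitters' processing notes, as are R 3.6.0 and Seurat 2.3.4, without roles, and the file header names software 3.0.2. The libraries held 114421875 UMIs in 19822 barcodes (MC38) and 91617457 in 14258 (control).

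UMIs of chosen barcodes were summed per library and divided by their total to give CPM (Python 3.11.15, numpy 2.4.6, scipy 1.17.1, pandas 2.3.3). Levels have exact Poisson intervals, shares exact binomial (Clopper-Pearson) intervals and ratios exact conditional intervals, all at 95%; a count of 0 was set to 3 for a bound. Called meant at least 2-fold, with no test. The members and lists were chosen with earlier results of these data known. Genes were named by a rule: the 20 highest in MC38, the first 12 past 2-fold in each direction by interval end, 2 each way per list, and a fixed set. Krt8, Krt18, Plin2, Mup3, Cyp3a11 and the genes of the Glul split were chosen after their values were seen. The ratio method was checked on simulated Poisson counts. These hold no excess of UMIs in single barcodes, so the check does not cover such spread. Scrublet (scanpy 1.11.5, expected rate 0.008 per 1000 barcodes) marked 1279 MC38 barcodes, 6 of them members, and 4 control barcodes, a share of 0.0495% that is too low for the caller to have worked there; doublets were left in. Named genes were placed by GENCODE M21. Both libraries came from pooled mice, and p-values were not computed. Results for a few genes that the rule names are not reported here.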

Additional observations from a re-analysis of the deposited data

How the results depend on the processing

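The median log2 ratio of acute phase genes, 1.98, ranged from 1.26 to 2.43 over all alternatives and kept its direction. Counts of genes past 2-fold depended on how many could be compared. Against 62 higher and 17 lower genes, they were 216 and 57 with 3 expected UMIs, 15 and 4 with 30, 210 and 58 with hepatocyte genes at 1% or more, 8 and 6 at 5% or more, 172 and 48 in the 1 to 2% band, and 24 and 7 with barcodes thinned to 500 UMIs. The higher count was 41 with at least 500 genes, 33 with a mitochondrial limit of 10% and 103 with one of 30%. With 10% the control kept 7 barcodes.

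The list medians moved as follows. The periportal median was 0.58 with 30 expected UMIs, 0.42 with 500 genes, 0.42 with the 10% mitochondrial limit and 0.69 thinned. The pericentral median was 2.36 with the 10% limit and -0.36 in the band. The urea and amino acid median was -0.55 at 1% and -0.47 in the band. The apolipoprotein median was -0.0065 at 1%, -1.12 at 5% and 0.049 in the band. The glucose median was 0.70 thinned. The rule genes' median was 0.41 at 1% and 0.21 in the band. The causes were not tested.

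The log2 ratio of the share of hepatocyte barcodes, 6.20, was 6.96 with 500 genes and 4.73 at 1%. That of Malat1 against B cell barcodes, MC38 library, was -6.12 and became -6.30 with 500 genes, -5.71 at 1%, -6.29 at 5%, -5.43 without the conditions on Ptprc, Clec4f and Stab2, -5.32 in the band and -6.27 without scrublet calls. In the Glul split the medians at 5% were 2.04 (pericentral) and -0.51 (periportal).

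A change of sign was counted only for genes whose main interval did not include 0, so changes in other genes, such as Scp2, are not listed. Of 953 values for 76 named genes, 18 changed sign in this sense. At 5% these were Ftl1 0.19, Fth1 1.08, Tpt1 0.48, Eef1a1 0.55, Mat1a -0.30 and Arg1 -0.49. At 1% they were Fth1 0.15 and Ttr 0.038, and in the band Fth1 0.20, Tpt1 0.0067, Dbi -0.091 and Cyp2e1 -0.62. With the 10% limit they were mt-Co3 0.23, mt-Atp6 0.071, mt-Co1 0.45, mt-Co2 0.34, mt-Cytb 0.22 and mt-Nd2 0.59. A ratio with no UMI in a library under an alternative was left out, 35 in all.

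The 1 to 2% band, the Glul split and the alternatives run on that split and on Malat1 were chosen after seeing the data. No paired analysis was possible because each group had 1 library and no result came from a test. For the same reason no replicate was left out. The 19 control barcodes limit every comparison between libraries.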
